A study of Mus musculus with 13 samples.

Results

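The pyruvate dehydrogenase complex and its regulators were examined in the liver of old mice that had been exposed to dichloroacetic acid early in life. The 10 genes were taken by name from the 18138 rows of the deposited table. They are the kinases Pdk1, Pdk2, Pdk3 and Pdk4, the phosphatase Pdp2 (listed there under its older name 4833426J09Rik), the complex's subunits Pdha1, Pdhb, Dlat and Dld, and its binding component Pdhx. All 10 were in the table, and all 10 matched a symbol in RefSeq's gene table. The 13 arrays each held liver RNA of 1 male B6C3F1 mouse, a hybrid strain used in carcinogen testing. Mice of the DCA group (4 arrays) drank 3.5 g/L dichloroacetic acid (DCA) for 10 weeks and then plain deionized water for 90 weeks. Mice of the PB group (5 arrays) received phenobarbital (PB) at 0.06% over the same 10 weeks, again with 90 weeks of water after it; the drug is a known inducer of liver enzymes in rodents. Control mice (4 arrays) received deionized water alone. The age of 7 days in the labels is the age at the start, per the study's design text. The tissue was archived frozen liver, taken long after dosing had stopped, so no animal was under the chemical when its RNA was made.

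The pyruvate dehydrogenase complex sits in the mitochondrial matrix and turns pyruvate into acetyl-CoA, the step that commits carbohydrate carbon to oxidation or fat synthesis. Pdha1 and Pdhb encode the chains of its E1 enzyme, Dlat the E2 core that carries lipoate, Dld the E3 enzyme, and Pdhx the protein that holds E3 on the core. Kinases of the PDK family phosphorylate E1 and switch the complex off, and phosphatases such as PDP2 switch it on again. In liver PDK2 and PDK4 are the best known kinases, and Pdk4 transcription rises with fasting and fatty acids. Dichloroacetate is an inhibitor of the kinases, which is why these genes are of interest in animals once exposed to it. The arrays measured mRNA, whereas most of this control acts on the protein.

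Mean raw intensity was 188.6 to 462 per array, and 7141 to 8458 genes had a detection p-value under 0.05. By group it was 231.9 to 462 in DCA, 188.6 to 356 in PB and 234.1 to 388 in control. The liver label was checked against 9 hepatocyte markers, of which 7 (Ttr, Apoa1, Serpina1a, Cps1, Ass1, Hpd and Cyp2e1) were detected on every array. Alb was detected on 4 of 13 arrays, at raw intensities of 93.5 to 140.0, and Tat on none. Of 5 skeletal muscle markers none was detected on any array. PB replicate 1 stood apart, with a median correlation of 0.941 with the other arrays where the other 12 had 0.959 to 0.977. For several results that rest on it, values without it are also given. Values below are log2 normalized intensities unless intensity is named, and since probes differ in brightness, levels are compared between groups for a gene and never between genes.

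Detection divided the genes. Pdk1, Pdk2, Pdp2, Pdha1, Pdhb, Dlat and Dld were detected on all 13 arrays. Pdk4 was detected on 6 of them, 2 in each group. Pdk3 and Pdhx were detected on no array, with raw intensities of 91.7 to 118.1 for Pdk3 and 92.8 to 116.6 for Pdhx against array background means of 94.4 to 112.8, so only a bound near background can be given. The 8 genes that were detected on at least 4 arrays were tested. A gene can pass that filter through 1 group alone, but none of these 8 did. Of the other phosphatase subunits, Pdp1 (in the table as Ppm2c) was detected on no array, and Pdpr was not analysed here.

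**Figure D1:**
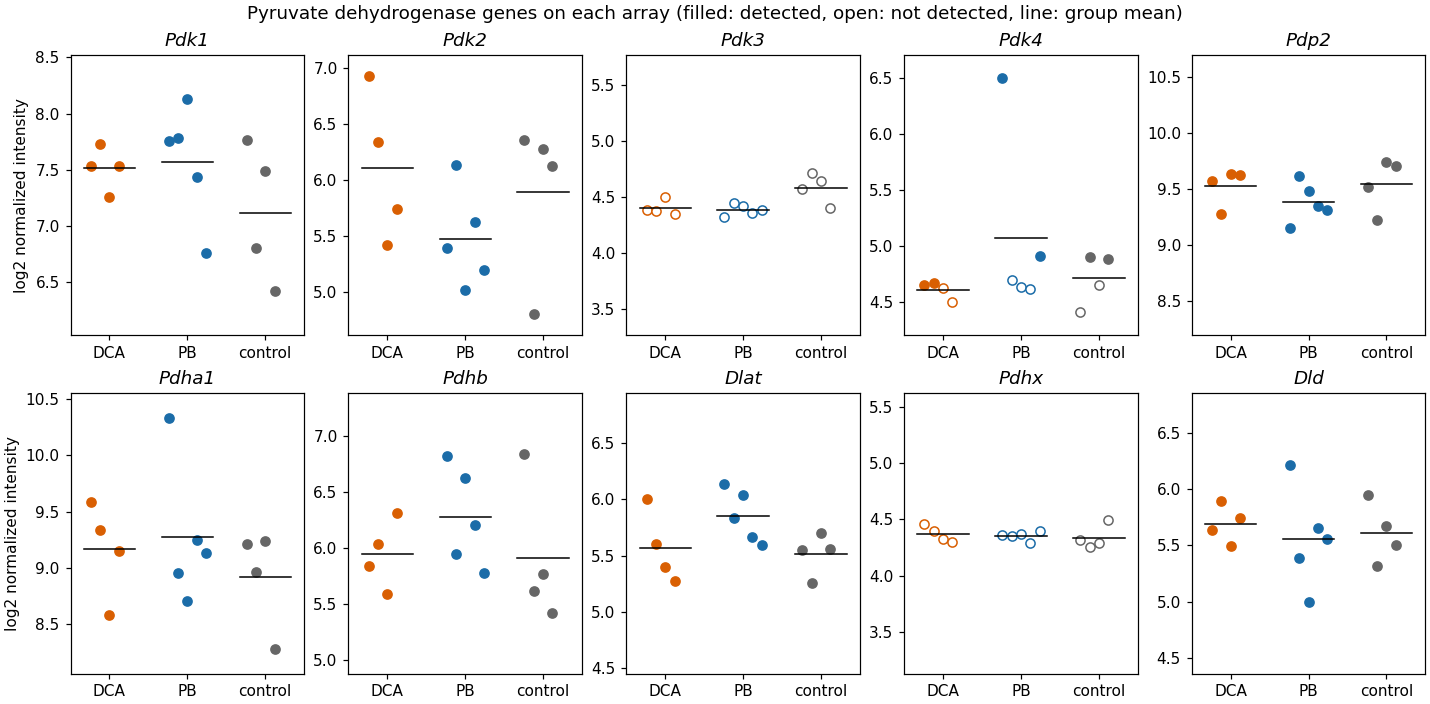
Each panel shows 1 gene, with log2 normalized intensity on the y axis over the same span of 2.5 in all panels, the DCA, PB and control arrays from left to right, filled points for arrays on which it was detected, open points for the rest and a line at the group mean. All groups overlap for the 8 tested genes, and 1 PB array lies far above the rest for Pdk4, at 6.50.

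None of the 8 tested genes differed between DCA-exposed and control livers in limma, and 0 passed in PB against control or in DCA against PB. The members' count of 0 has to be read against how few genes passed anywhere. In DCA against control 0% of 8431 tested genes were called at an adjusted p under 0.05, in PB against control 0.0712% (6 genes), and in DCA against PB 0.107% (9 genes). At an unadjusted p under 0.05 the members again numbered 0 in each comparison, against 4.42%, 10.1% and 14.5% of all tested genes in the same order of comparisons. The exact permutation test over arrays, two-sided and unadjusted, also passed 0 of 8 each time, where it passed 2.41% of all tested genes in DCA against control, 8.35% in PB against control and 13.5% in DCA against PB. Its smallest possible p is 0.0286 for 4 against 4 arrays and 0.00794 for 4 against 5. The F test of limma for any difference among the groups passed 0 of 8, where 0.107% of all tested genes passed. For no member did all arrays of one group lie on one side of another group's, while groups did not overlap in 2.41% of tested genes for DCA against control, 3.48% for PB against control and 5.98% for DCA against PB. In the comparisons that hold these arrays, and in the F test, the counts of called members were also 0 without PB replicate 1 and without control replicates 2 and 4 together. In a piece of whole liver, fewer cells of a type and less RNA per cell cannot be told apart.

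Among the kinases, Pdk1 is the isoform known as a target of hypoxia signalling. It was at 7.54, 7.73, 7.26 and 7.53 in DCA livers, at 7.75, 7.78, 8.13, 7.43 and 6.75 in PB livers and at 7.76, 6.80, 7.48 and 6.42 in control livers. The DCA arrays lay close together, and the lowest values were control replicates 4 and 2 and PB replicate 5, so all groups overlapped. Means were 7.51 ± 0.20 in DCA (SD, n = 4), 7.57 ± 0.52 in PB (SD, n = 5) and 7.12 ± 0.61 in control (SD, n = 4). The difference was 0.40 ± 0.31 in DCA against control (limma adjusted p = 0.995) and 0.45 ± 0.29 in PB against control (limma adjusted p = 0.649), each with its standard error. These comparisons share the control arrays. With control replicates 2 and 4 both left out, which was decided once the values had been seen, the differences were -0.11 and -0.05. Without control replicate 4 alone they were 0.165 and 0.22, and without control replicate 1 that of DCA against control was 0.61. DCA and PB livers differed by -0.06 ± 0.29 (limma adjusted p = 0.949).

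The same control arrays stood out for Dbp, a gene of the molecular clock. Dbp, a transcription factor of the clock's output with a strong daily rhythm, was at 7.50 and 10.1 on control replicates 2 and 4, against 11.1 to 12.2 on the other 11 arrays. Over the 13 arrays Pdk1 correlated with Dbp at r = 0.61 (Spearman's rho 0.42), and at r = 0.69 without the arrays farthest from the median of Pdk1, control replicate 4 and PB replicate 5. With the clock gene Per3 the values were 0.84 (rho 0.64) and 0.70. Per3 was detected on 4 DCA, 4 PB and 2 control arrays, and its lowest control value, 4.27, was at background. No other clock gene was correlated with Pdk1. Control replicate 2, which had the lowest Dbp, was not among the arrays left out. That check therefore cannot show whether the relation with Dbp rests on it. These are descriptions over arrays that share all technical steps. Control replicates 2 and 4 also had the highest means of the neutrophil markers, 6.80 and 7.15, where DCA livers had 5.32 to 5.73, PB livers 5.20 to 6.06 and control livers 5.29 to 7.15. Their erythroid marker means were 8.41 and 8.47, where DCA livers had 7.37 to 8.14, PB livers 7.29 to 7.93 and control livers 7.95 to 8.47. Of 5 neutrophil markers, 1 was detected on every array and Ngp on none. In other markers control replicates 2 and 4 were unlike each other. Kupffer cell marker means were 7.48 (the highest of all arrays) and 6.32, and hepatocyte marker means 10.82 (the lowest) and 11.05. The part of these markers and of the clock genes in the level of Pdk1 was not tested.

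Pdk2 is the widely expressed kinase that dichloroacetate is known to inhibit most readily. It was at 6.92, 6.34, 5.42 and 5.74 in DCA livers, at 5.39, 6.14, 5.02, 5.62 and 5.20 in PB livers and at 6.35, 4.81, 6.27 and 6.12 in control livers. The array with the lowest value was control replicate 2, where the raw intensity of 110.7 had a detection p-value of 0.0464. The remaining control arrays lay above 4 of the 5 PB arrays, and PB replicate 2 lay among them. Group means were 6.11 ± 0.66 in DCA (SD, n = 4), 5.47 ± 0.43 in PB (SD, n = 5) and 5.89 ± 0.73 in control (SD, n = 4). Pdk2 had the widest difference of the 8 in DCA against PB, 0.63 ± 0.36 (1.55-fold, 95% interval 0.909 to 2.64, limma adjusted p = 0.433, exact permutation p = 0.119), and 0.34 without DCA replicate 1. That array had the highest mean raw intensity of all, 462, and the part of array intensity in the level of Pdk2 was not tested. In PB against control the difference was -0.41 ± 0.36 (limma adjusted p = 0.762), and -0.78 without control replicate 2 and -0.26 without control replicate 1. With the background fitted on all rows the differences in DCA against PB and in PB against control were 0.16 and -0.10. In DCA against control it was 0.22 ± 0.38 (limma adjusted p = 0.995), and -0.145 without control replicate 2.

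Pdk4, the kinase induced by fasting, was near background in nearly every liver. It was at 4.65, 4.67, 4.63 and 4.50 in DCA livers, at 6.50, 4.70, 4.64, 4.62 and 4.92 in PB livers and at 4.41, 4.90, 4.66 and 4.88 in control livers. PB replicate 1 was the exception, with a raw intensity of 143.1, which is 10.2 background SDs above that array's background mean. On the other 12 arrays the distance was 0.145 to 2.11 background SDs. The difference was -0.10 ± 0.33 in DCA against control (limma adjusted p = 0.995), 0.36 ± 0.31 in PB against control (limma adjusted p = 0.768) and -0.46 ± 0.31 in DCA against PB (limma adjusted p = 0.513). Without PB replicate 1 the difference of PB against control was 0.004 and that of DCA against PB was -0.11, and with the background fitted on all rows they were 0.07 and -0.08. Pdk3, a kinase with little known expression in liver, lay between 4.32 and 4.72 on all arrays and was detected on none.

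The phosphatase Pdp2, which reactivates the complex and is known to respond to insulin, had the smallest spread within groups of the tested members. It was at 9.57, 9.28, 9.64 and 9.63 in DCA livers, at 9.16, 9.62, 9.48, 9.35 and 9.32 in PB livers and at 9.52, 9.23, 9.74 and 9.70 in control livers. All 13 values lay within 0.59 of each other, and the groups overlapped. The pooled SD within groups was 0.19, and 20.2% of tested genes had a smaller one. In DCA against control the difference was -0.02 ± 0.15, a fold of 0.988 with a 95% interval of 0.790 to 1.24 (limma adjusted p = 0.995). In PB against control it was -0.16 ± 0.14, a fold of 0.893 with an interval of 0.722 to 1.10 (limma adjusted p = 0.768). DCA and PB livers differed by 0.15 ± 0.14 (limma adjusted p = 0.664). With median scaling Pdp2 differed by -0.62 in PB against control and by 0.69 in DCA against PB, or by -0.36 and 0.35 relative to the median of all tested genes.

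Of the complex itself, Pdha1 encodes the X-linked alpha chain of E1, the chain whose serines the kinases phosphorylate. It was at 9.58, 9.34, 8.58 and 9.15 in DCA livers, at 10.3, 8.96, 8.70, 9.25 and 9.13 in PB livers and at 9.21, 8.96, 9.23 and 8.27 in control livers. PB replicate 1 was again the highest array, and control replicate 4 the lowest, and the other arrays of all groups were mixed. The difference was 0.24 ± 0.33 in DCA against control (limma adjusted p = 0.995), 0.36 ± 0.31 in PB against control (limma adjusted p = 0.769) and -0.11 ± 0.31 in DCA against PB (limma adjusted p = 0.895). Without PB replicate 1 the last 2 differences were 0.09 and 0.15. The difference in DCA against control was 0.028 without control replicate 4, 0.10 without DCA replicate 1 and 0.435 without DCA replicate 3, and in PB against control it was 0.14 without control replicate 4.

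Pdhb, the beta chain of E1, was at 5.84, 6.04, 5.59 and 6.31 in DCA livers, at 6.82, 5.94, 6.62, 6.20 and 5.78 in PB livers and at 6.84, 5.62, 5.77 and 5.42 in control livers. Control replicate 1 was the highest array of all and the other control arrays were among the lower ones, so the control group spanned the PB group. The difference was 0.03 ± 0.30 in DCA against control (limma adjusted p = 0.996), 0.36 ± 0.29 in PB against control (limma adjusted p = 0.731) and -0.33 ± 0.29 in DCA against PB (limma adjusted p = 0.620). In PB against control it was 0.66 without control replicate 1, 0.20 without control replicate 4 and 0.23 without PB replicate 1, and in DCA against PB -0.20 without PB replicate 1 and -0.21 without DCA replicate 3. Its detection p-values combine several probes, unlike those of the other members, so its value may join probes that cannot be separated here.

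Dlat encodes the E2 acetyltransferase that forms the core of the complex. It was at 6.00, 5.60, 5.40 and 5.28 in DCA livers, at 6.14, 5.84, 6.04, 5.66 and 5.60 in PB livers and at 5.55, 5.26, 5.70 and 5.56 in control livers. The PB arrays were in the upper part of the range, with 3 of 5 above all control arrays, but the groups overlapped. Means were 5.57 ± 0.32 in DCA (SD, n = 4), 5.85 ± 0.23 in PB (SD, n = 5) and 5.52 ± 0.19 in control (SD, n = 4). The difference in PB against control, 0.34 ± 0.17, had the smallest unadjusted p of any member in any comparison (p = 0.0664, limma adjusted p = 0.530, exact permutation p = 0.0556). It was 1.26-fold with a 95% interval of 0.982 to 1.62, and the log2 difference was 0.065 with the background fitted on all rows. In DCA against control it was 0.05 ± 0.18 and in DCA against PB -0.28 ± 0.17 (limma adjusted p = 0.995 and 0.452). Without PB replicate 1, the array with the highest Dlat, the difference in DCA against PB was -0.216. Leaving out 1 array gave 0.251 to 0.407 in PB against control.

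Dld, the E3 enzyme, also serves the 2-oxoglutarate and branched-chain dehydrogenases and the glycine cleavage system. It was at 5.64, 5.89, 5.49 and 5.74 in DCA livers, at 6.22, 5.38, 4.997, 5.65 and 5.55 in PB livers and at 5.95, 5.32, 5.68 and 5.50 in control livers. The PB group held both the highest array, replicate 1, and the lowest, replicate 3, and enclosed both other groups. Differences were 0.08 ± 0.22 in DCA against control, -0.05 ± 0.21 in PB against control and 0.13 ± 0.21 in DCA against PB (limma adjusted p = 0.995, 0.968 and 0.803). Without PB replicate 1 the last 2 were -0.216 and 0.30, and without PB replicate 3 they were 0.093 and -0.008. Pdhx lay between 4.25 and 4.50 on all arrays, where it was not detected.

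**Figure D2:**
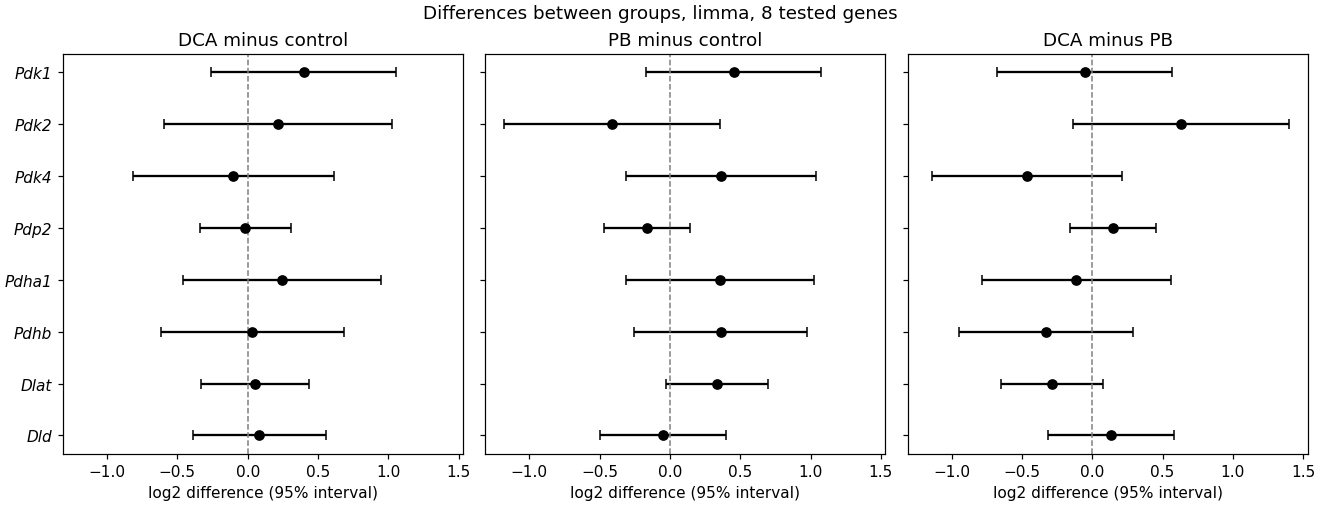
Points are the log2 differences of the 8 tested genes and bars their 95% intervals from limma, for DCA minus control, PB minus control and DCA minus PB from left to right. Every interval contains 0, the narrowest are those of Pdp2, and that of Pdk2 in DCA minus PB reaches to 1.40.

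Set side by side, the differences in DCA against control ran from -0.10 to 0.40 with a median of 0.07, where the median of all tested genes was -0.01. They were above 0 for 6 of 8 members, beside 49% of all tested genes, but the sign of Pdp2 turned with median scaling and that of Pdhb with no background correction, with the background fitted on all rows and with the authors' normalized values. With control replicates 2 and 4 both left out the sign turned for 7 of the 8, all but Pdp2. In PB against control they ran from -0.41 to 0.45 with a median of 0.35 (all tested genes -0.01), above 0 for 5 of 8 beside 49% of all tested genes, and Pdha1 turned with median scaling, Pdk1 and Pdhb without control replicates 2 and 4. In DCA against PB they ran from -0.46 to 0.63 with a median of -0.08 (all tested genes -0.004), above 0 for 3 of 8 beside 49.4% of all tested genes. There Pdk1, Pdha1, Pdhb and Dlat turned with median scaling, and Pdk1 and Pdha1 also with array weights. The intervals allow, at their widest, a fold of 2.08 for a member in DCA against control, 2.27 in PB against control and 2.64 in DCA against PB, so changes of that size cannot be set aside for every member at this number of arrays.

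Of the 8 tested members, 6 varied within groups by more than most genes, and Pdp2 and Dlat by less. With 1 array per mouse, variation between mice and between arrays cannot be told apart. The pooled SD within groups was 0.61 for Pdk2, 0.53 for Pdk4, 0.52 for Pdha1, 0.48 for Pdk1 and 0.48 for Pdhb, against a median of 0.28 over tested genes. These SDs exceeded those of 93.9% of tested genes for Pdk2, 90.2% for Pdk4, 89.8% for Pdha1, 87.0% for Pdk1 and 86.4% for Pdhb. The SD of Dld (0.33) exceeded that of 64.9% of tested genes and the SD of Dlat (0.25) that of 40.9%. For Pdk4 the spread came from 1 array: its range was 2.09 over 13 arrays and 0.50 without PB replicate 1. For Pdha1 the range fell to 1.31 without that array, against 2.06 with it, while those of Pdk1 (1.71), Pdk2 (2.12) and Pdhb (1.42) did not move.

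Some members varied together over the arrays. Of the 28 pairs of tested members, Pdk1 with Pdhb had the highest correlation (r = 0.74, rho 0.77, n = 13 arrays), followed by Pdha1 with Dld (r = 0.74, rho 0.76). Without the arrays farthest from the median of the first gene they were 0.69 and 0.67. Without PB replicate 1 alone they were 0.75 and 0.56, and that array was the highest for both Pdha1 and Dld. Pdk4 and Pdha1 had r = 0.63 with a rho of 0.02, and r = -0.35 without PB replicate 1, so that relation rests on 1 array. Without that array Pdk4 ran against Pdk1 (r = -0.76) and Pdhb (r = -0.75), but its values there are mostly at background and their order carries little. The correlations are descriptions, over arrays that share labelling, hybridisation and normalization.

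**Figure D3:**
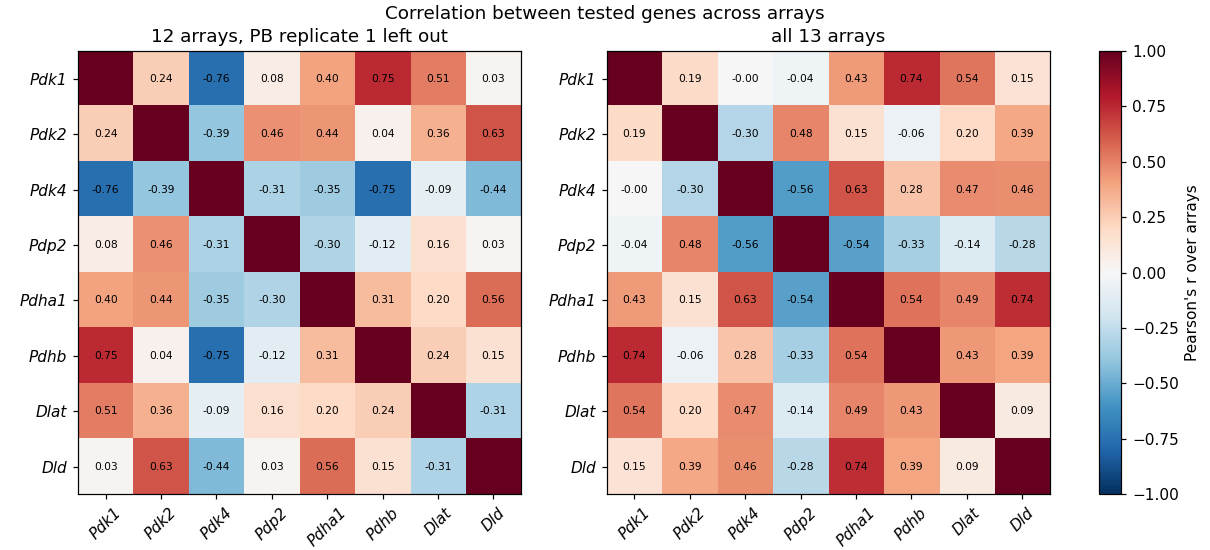
Each cell gives Pearson's r between 2 tested genes over arrays, red for positive and blue for negative, without PB replicate 1 on the left and with all 13 arrays on the right. The pair Pdk1 and Pdhb is near 0.75 in both panels, while those of Pdk4 with Pdha1, Pdhb, Dlat and Dld are negative on the left and positive on the right.

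PB replicate 1 carried the highest Pdk4, Pdha1, Dlat and Dld of all arrays and the lowest Pdp2. Among 8423 other tested genes, those most correlated with Pdk4 over 13 arrays were Nupr1, Bex4, Gpc3, B930041F14Rik (now Fndc10) and Espn, with r from 0.96 to 0.98. All 5 were far higher on PB replicate 1 than anywhere else. They were picked for following Pdk4, which is high on that array, so this was fixed by the choice. Nupr1, a stress-induced chromatin protein, was at 9.83 there, against 5.24 to 6.64 on the other 12 arrays. Gpc3, a glypican used as a marker of liver cancer, was at 6.77, against 4.47 to 5.02, and was detected on 3 DCA, 2 PB and 3 control arrays. Bex4 was detected on 1 DCA, 2 PB and 1 control array, and Espn on 1, 4 and 1. Without the arrays farthest from the median of Pdk4, PB replicates 1 and 5, the correlation stayed at 0.86 for Nupr1 and was 0.37 to 0.56 for the others, so for those it rests largely on these arrays. Fgf21, a hepatic hormone that rises in fasting and stress, was at 9.84 on PB replicate 1, against 4.43 to 6.47 elsewhere.

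The genes most like Pdha1 were 6720467C03Rik (now Cibar1), 4432416J03Rik (now Nxpe2), Gulo, Cyp2c67 and Aldh3a2, with r from 0.93 to 0.96. Gulo is the enzyme that completes vitamin C synthesis in mice, Cyp2c67 is a hepatic cytochrome P450, and Aldh3a2 oxidises fatty aldehydes. Without PB replicate 1 and control replicate 4, the farthest arrays, r was 0.77 to 0.89. These genes too were picked from 8423 for their r over the same 13 arrays. A high r on the remaining arrays is therefore partly fixed by the choice. Gulo ran from 9.11 on control replicate 4 to 12.4 on PB replicate 1.

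**Figure D4:**
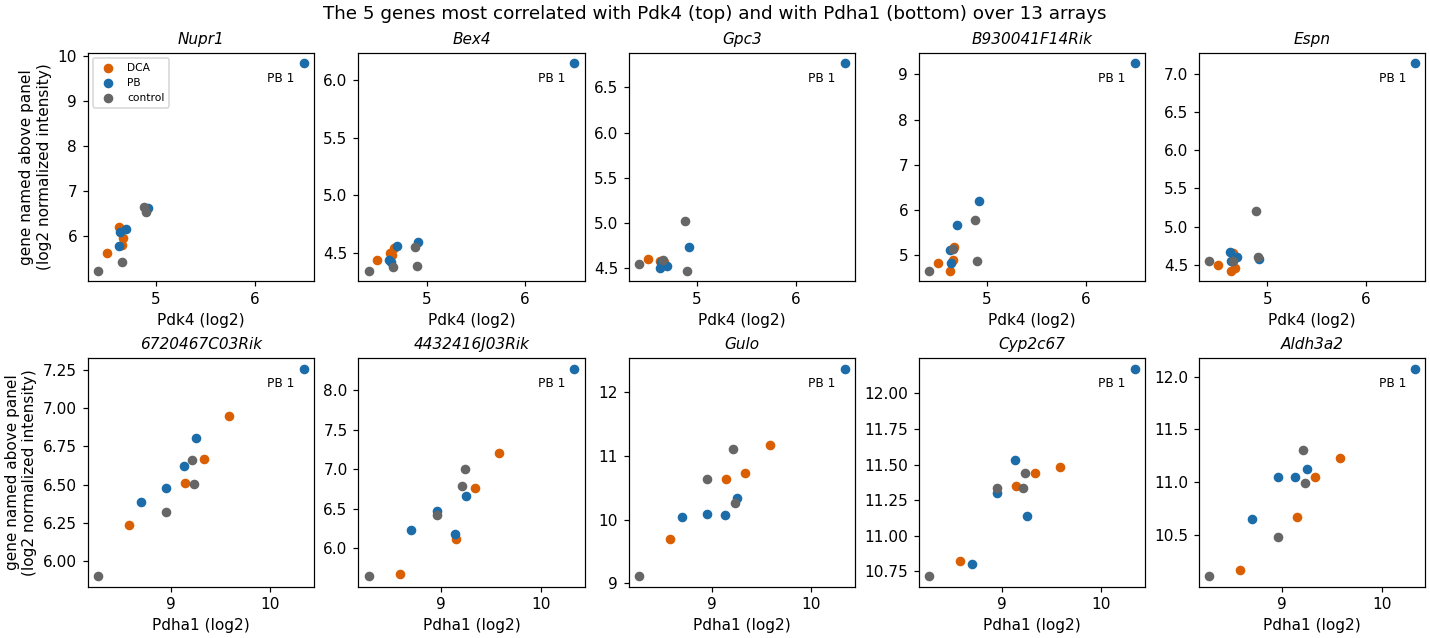
Each panel plots the log2 normalized intensity of 1 gene on the y axis against that of Pdk4 (top row) or Pdha1 (bottom row) on the x axis for the 13 arrays, coloured by group. In the top row 1 PB array sits alone at the upper right, at 6.50 for Pdk4, while in the bottom row the points are spread along a line.

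Markers of other liver cells differed on the same array. For the 6 endothelial markers, all in the table, the mean level was 5.58 on PB replicate 1 and 6.17 to 6.87 on the other arrays (DCA 6.44 to 6.77, PB 5.58 to 6.87, control 6.17 to 6.61). For the 6 Kupffer cell markers, all in the table and Cd5l detected nowhere, it was 5.62 on PB replicate 1 and 6.21 to 7.48 on the others (DCA 6.21 to 6.69, PB 5.62 to 6.65, control 6.24 to 7.48). For the 7 stellate cell markers, all in the table and Col3a1 detected nowhere, it was 5.03 on PB replicate 1 and 5.44 to 6.34 on the others (DCA 5.82 to 6.34, PB 5.03 to 6.20, control 5.44 to 5.98). Only 2 of the endothelial, 2 of the Kupffer cell and 3 of the stellate cell markers were detected on every array, so these means include values near background. Not every one of these markers was low on PB replicate 1. The lowest PB values of Kdr (4.82), Lyve1 (4.65) and Col1a2 (4.67) were above the DCA and control medians of the same gene. The erythroid markers averaged 7.29 on PB replicate 1 and 7.37 to 8.47 on the others. The hepatocyte markers averaged 10.9 on PB replicate 1, within the 10.8 to 11.1 of the others. The part of these cells in the level of Pdk4 or Pdha1 was not tested.

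The promoters of Pdk4 and Pdha1 are shown, the kinase and the E1 chain among the 4 members that were highest on that array. They cover the 250 bases before the start site in RefSeq's table for GRCm38.p6, 5′ to 3′ on the gene's own strand, with motif matches in capitals. Pdk4 lies at chr6:5496279-5496528 and Pdha1 at chrX:160138431-160138680, both on the minus strand.
Pdk4: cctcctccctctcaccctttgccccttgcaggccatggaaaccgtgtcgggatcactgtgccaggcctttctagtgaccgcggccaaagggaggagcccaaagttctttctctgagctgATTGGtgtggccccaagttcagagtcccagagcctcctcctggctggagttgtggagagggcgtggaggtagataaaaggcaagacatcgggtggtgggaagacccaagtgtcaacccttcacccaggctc
Pdha1: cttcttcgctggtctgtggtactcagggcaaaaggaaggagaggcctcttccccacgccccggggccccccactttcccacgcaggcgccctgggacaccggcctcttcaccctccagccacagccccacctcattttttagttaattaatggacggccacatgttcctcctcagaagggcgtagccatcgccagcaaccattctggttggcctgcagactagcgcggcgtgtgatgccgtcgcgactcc
The motifs searched, on both strands and with no overlap found in the printed windows, were the nuclear receptor motif AGGTCA, the GC box GGGCGG, the CCAAT box, the TATA box TATAAA, the E-box CACGTG and the FOXO site TGTTTAC. The Pdk4 window holds 1 of them, a CCAAT box on the opposite strand that begins 131 bases before the start site, and CCAAT occurs in 33.8% of all 32851 windows of this length. The Pdha1 window holds none of these letters. The Pdk4 window has 6 CpG dinucleotides, the median of all windows, and the Pdha1 window has 15, more than 72.7% of windows. Of the 12 windows of the 10 members, 6 hold GGGCGG (32.7% of all windows) and 0 hold AGGTCA (14% of all windows). A match describes letters only, and a missing one says nothing of the factor.

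Genes around the complex were grouped in lists by function, and 0 passed limma after adjustment in any list or comparison. Counts at an unadjusted p under 0.05 and by the exact permutation test (unadjusted) are given for each list. Over all tested genes the shares are 4.42%, 10.1% and 14.5% unadjusted in limma and 2.41%, 8.35% and 13.5% by permutation, for DCA against control, PB against control and DCA against PB in that order, and the list counts are to be read against them. For counts above 0 the shares of all tested genes are 49%, 49% and 49.4% in the same order. Of 13 genes of pyruvate supply and use 6 were tested, with medians of 0.08 in DCA against control (4 above 0, 2 below), -0.13 in PB against control (2 above, 4 below) and 0.15 in DCA against PB (3 above, 3 below). In the same order 0, 1 and 0 genes passed unadjusted in limma, and 0 by permutation in each. Ldha, the lactate dehydrogenase subunit that reduces pyruvate, was at 11.5, 10.1, 10.3, 11.1 and 10.9 in PB livers and at 11.3, 11.7, 11.2 and 11.4 in control livers. That is -0.63 ± 0.29 (limma adjusted p = 0.492), with 4 of 5 PB arrays below every control array. Pcx, the carboxylase that sends pyruvate to glucose synthesis, differed by 0.31 ± 0.30 in DCA against control (limma adjusted p = 0.995). The carrier gene Mpc2 (listed as Brp44) was below the filter, and Mpc1 was not analysed here.

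Of 13 genes for lipoate, iron-sulphur and thiamine supply, which make cofactors of E1 and E2, 7 were tested. Medians were 0.11 in DCA against control (5 above 0, 2 below), -0.24 in PB against control (2 above, 5 below) and 0.44 in DCA against PB (4 above, 3 below). Unadjusted, limma passed 2, 2 and 3 of the 7 and the permutation test 0, 2 and 2. Slc19a2, a thiamine transporter, was at 10.1, 9.71, 10.4, 10.2 and 9.93 in PB livers and at 9.71, 9.36, 9.53 and 9.39 in control livers. PB replicate 2 and control replicate 1 touched at 9.71 and the other PB arrays lay above all control arrays (difference 0.55 ± 0.15, limma adjusted p = 0.264). Bola3, which helps insert iron-sulphur clusters into the lipoate synthase pathway, was at 9.61, 9.58, 8.82 and 9.16 in DCA livers and at 8.69, 8.79, 8.17, 8.65 and 8.52 in PB livers. These groups did not overlap, with a difference of 0.73 ± 0.20 (limma adjusted p = 0.174). Lias, the lipoate synthase, differed by -0.55 ± 0.20 in DCA against control (limma adjusted p = 0.995).

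The sister dehydrogenase complexes are built on the same plan and share Dld. The glycine cleavage system, listed with them, is not of that plan but also uses Dld. Of these 11 genes 9 were tested, with medians of -0.08 in DCA against control (4 above 0, 5 below), -0.19 in PB against control (1 above, 8 below) and 0.20 in DCA against PB (5 above, 4 below). Unadjusted, limma passed 0, 0 and 2 of the 9 and the permutation test 1, 0 and 1. Dbt, the E2 of the branched-chain complex, was at 8.03, 7.83, 7.83 and 7.80 in DCA livers and at 7.01, 7.53, 7.02, 7.66 and 7.67 in PB livers. The groups did not overlap, and the difference was 0.49 ± 0.16 (limma adjusted p = 0.219), but by a detection p-value combined over probes Dbt was detected on 4 of 13 arrays. Ppm1k, the phosphatase of that complex, differed by 0.53 ± 0.20 in DCA against PB (limma adjusted p = 0.270).

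Genes of the fasting response, to which Pdk4 belongs, and of the fed response were listed separately. Of 21 PPARA and fasting genes 14 were tested, with medians of -0.04 in DCA against control (5 above 0, 9 below), 0.12 in PB against control (8 above, 6 below) and -0.17 in DCA against PB (5 above, 9 below). Unadjusted, limma passed 3, 2 and 4 of the 14 and the permutation test 0, 1 and 5. Cpt1a, which admits fatty acids to mitochondria, was detected on no array. Of 10 fed-state and lipogenic genes 7 were tested, with medians of 0.30 in DCA against control (6 above 0, 1 below), 0.69 in PB against control (7 above) and -0.46 in DCA against PB (1 above, 6 below). Unadjusted, limma passed 2, 5 and 1 of the 7 and the permutation test 1, 4 and 1. Elovl6, a fatty acid elongase, was at 10.3, 8.68, 9.95, 8.63 and 8.80 in PB livers and at 7.93, 7.45, 8.09 and 6.91 in control livers. These groups did not overlap, with a difference of 1.67 ± 0.36 (limma adjusted p = 0.118). DCA livers, at 8.17 to 9.02, also lay above all control livers, by 0.93 ± 0.38 (limma adjusted p = 0.995). Both differences share the 4 control arrays. Of 12 clock genes 8 were tested, with medians of 0.50 in DCA against control (8 above 0, beside 49% of all tested genes), 0.46 in PB against control (8 above, beside 49%) and 0.06 in DCA against PB (4 above, 4 below). The comparisons with control share the arrays with low Dbp. Unadjusted, limma passed 2, 1 and 0 of the 8 and the permutation test 0 in each.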

How the data were processed

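The starting values were each gene's intensity per array and its detection p-value, as exported by the authors; the submitters' processing notes name GenomeStudio without a version. The table has 1 row per gene, and how probes were joined is not given in the sources used here. A second deposited table held intensity values that the authors had normalized by unstated steps, on a linear scale, and served as an alternative. Groups came from the labels, and replicate numbers only name arrays of separate animals.

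A normexp background correction (offset 16) came first, its mean and SD inferred from the 13668 rows whose detection p-values step as single probes do, then values were quantile normalized and put on the log2 scale. Genes detected (p under 0.05) on at least 4 arrays, 8431 in all, were fitted as group means over 13 arrays (limma 3.58.1, R 4.3.3) with Benjamini-Hochberg adjustment over all of them and a threshold of 0.05. Errors of differences are standard errors and intervals are 95%. The fit was tested on simulated data. Precision is limited by the number of arrays.

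Members, lists and tests were chosen with earlier results of these data known. All 10 members were to be named, with the 5 genes most correlated with Pdk4 and with Pdha1 and up to 4 genes per list and comparison with the smallest p, of which the text prints some. Cpt1a and Brp44 fall outside that rule and were named after their values were seen.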

Additional observations from a re-analysis of the deposited data

Results flagged for a closer look

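For each of the 10 genes the most distant array was compared with the rest of its group, in 30 groups of arrays. Chance marks about 1 in 20 such groups, and 2 were marked. Pdk4 on PB replicate 1 was at 6.50 where the nearest of the other PB arrays was at 4.92, a gap of 0.842 of the group's range. Pdk2 on control replicate 2 was at 4.81 where the nearest control array was at 6.12, a gap of 0.849 of the range, with a raw intensity close to background on that array.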

How the results depend on the processing

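No paired analysis was possible because replicate numbers only name arrays of different animals. Under 23 alternative settings, leaving out each array among them, 0 of the tested members were called in any comparison with limma. The differences of the members kept their sign in 398 of 437 recomputed values, and 7 of 24 differences kept it under every setting run. The causes of the turns were not tested unless a setting's construction shows them. In DCA against control, leaving out 1 array gave -0.088 to 0.152 for Dlat, -0.014 to 0.193 for Dld, -0.13 to 0.34 for Pdhb, -0.145 to 0.45 for Pdk2 and -0.126 to 0.065 for Pdp2. In PB against control it gave -0.216 to 0.093 for Dld. In DCA against PB it gave -0.008 to 0.30 for Dld, -0.26 to 0.15 for Pdha1 and -0.261 to 0.084 for Pdk1. Leaving out control replicates 2 and 4 together, an alternative added once the data had been seen, gave in DCA against control -0.06 for Dlat, -0.12 for Dld, -0.06 for Pdha1, -0.37 for Pdhb, -0.11 for Pdk1, -0.21 for Pdk2 and 0.08 for Pdk4, and in PB against control -0.032 for Pdhb and -0.053 for Pdk1. With median scaling the median of all tested genes was 0.06 in DCA against control, -0.26 in PB against control and 0.34 in DCA against PB. It gave 0.07 for Pdp2 in the first, -0.09 for Pdha1 in the second, and 0.10 for Dlat, 0.40 for Pdha1, 0.05 for Pdhb and 0.42 for Pdk1 in the third, which relative to those medians are 0.01, 0.17, -0.24, 0.06, -0.29 and 0.08 in the same order. In DCA against control Pdhb was at -0.02 with the background fitted on all rows, -0.017 with the authors' values and -0.006 with no background correction. Array weights gave 0.10 for Pdha1 and 0.17 for Pdk1 in DCA against PB. Over all genes, calls in PB against control numbered 6, with 0 to 13 under the alternatives, and in DCA against PB 9, with 0 to 308 (array weights), while in DCA against control the number was 0 under each.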
